A study of Mus musculus with 18 samples.

Results

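The knockout of Kdm3a was made in the pancreatic tumor lines 6419c5 and 6694c2, both of mouse, and its effect on the transcriptome was compared between them. The quantity described throughout is the interaction: the knockout effect in 6694c2 minus the knockout effect in 6419c5. Each knockout effect is the mean of the 2 knockout clones, A and B, minus wild type (WT) of the same line, on the log2(TPM + 1) scale. TPM are transcript abundances scaled to the same total in every library. Genes whose TPM averaged 1 or more across the 18 libraries were included, which gave 13422 of the 24493 gene symbols.

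RNA was sequenced from tumor cells that had been sorted out of untreated subcutaneous tumors, strain C57BL/6. The 6 groups, of 3 libraries each, were 6419c5 WT, 6419c5 Kdm3a knockout clone A, 6419c5 Kdm3a knockout clone B, and the same for 6694c2. All libraries of a knockout group came from 1 clone, so the unit in which the knockout was made is the clone and each line has 2 such units. Whether libraries within a group stem from separate tumors is not stated in the labels, so p-values measure the spread between these libraries, which may be technical in part, and they do not cover the spread between clones. How the cells were sorted, how the gene was disrupted, the sex and age of the animals and what other alleles the lines carry are not given in the sources used here. Between 12213 and 13590 genes reached 1 TPM in a library. Correlations across genes were 0.932 to 0.989 within groups and 0.797 to 0.974 between groups (Pearson, log2 scale).

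Kdm3a encodes a demethylase that removes mono- and dimethyl marks from lysine 9 of histone H3, marks that go with silent chromatin, and the protein is known as a coactivator that keeps target genes active. Tumor lines from the same mouse model can differ in their differentiation state, in signaling and in the amount of immune cells that their implants attract. The interferons are secreted cytokines: type I interferons act on genes that hold the interferon-stimulated response element (ISRE), and interferon gamma acts on genes that hold the gamma-activated sequence (GAS). Their targets include antiviral proteins and the proteins that load and present peptides on MHC molecules.

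The Kdm3a transcript itself fell to a like extent in both lines. In 6419c5 it stood at 38.2, 24.1 and 32.9 TPM in WT, and clone A had 21.6, 24.6 and 21.6 TPM, and clone B had 12.3, 18.8 and 13.5 TPM. In 6694c2 it stood at 39.9, 38.9 and 67.6 TPM in WT, and clone A had 26.2, 26.4 and 29.8 TPM, and clone B had 28.8, 30.2 and 25.2 TPM. In 6694c2 every knockout library lay below every WT library, whereas in 6419c5 clone A overlapped WT. The knockout effect on Kdm3a was -0.75 in each line, and the interaction was -0.00 with a 95% interval of -0.54 to 0.54 (limma, adjusted p = 0.998). Klf5, a zinc finger transcription factor of epithelial cells, also fell in both lines, by 0.60 in 6419c5 and by 0.70 in 6694c2. Its interaction was -0.10 with a 95% interval of -0.31 to 0.11 (limma, adjusted p = 0.583).

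Transcripts of other cell types were present in the sorted cells and moved with the groups. The macrophage index, the mean log2(TPM + 1) of 20 macrophage genes, was 5.36 to 7.82 in 6419c5 WT, 6.32 to 8.07 in its clone A and 3.39 to 4.09 in its clone B. It was 2.99 to 5.77 in 6694c2 WT, 6.82 to 7.37 in its clone A and 4.01 to 6.67 in its clone B. Clone B of 6419c5 had the lowest mean of the 4 clones, and the interaction of the index was 2.49. All 20 macrophage genes passed the expression filter and had positive interactions, with a median of 2.61 against 0.14 over all genes, but only Cx3cr1, a chemokine receptor, passed the test. The fibroblast index had an interaction of 0.94, with 2 of 18 tested genes called (Acta2 at 1.21 and Dcn at 1.63; 0 positive calls in the list with median-of-ratios scaling), and the neutrophil index had one of 1.59. The labelled tumor cells were recognisable by keratins, with Krt18 between 2141 and 3204 TPM in all 18 libraries. In sorted bulk samples, more cells of a type and more RNA per cell cannot be told apart, and the part these markers had in the results below was not tested except where a value is given.

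**Figure D1:**
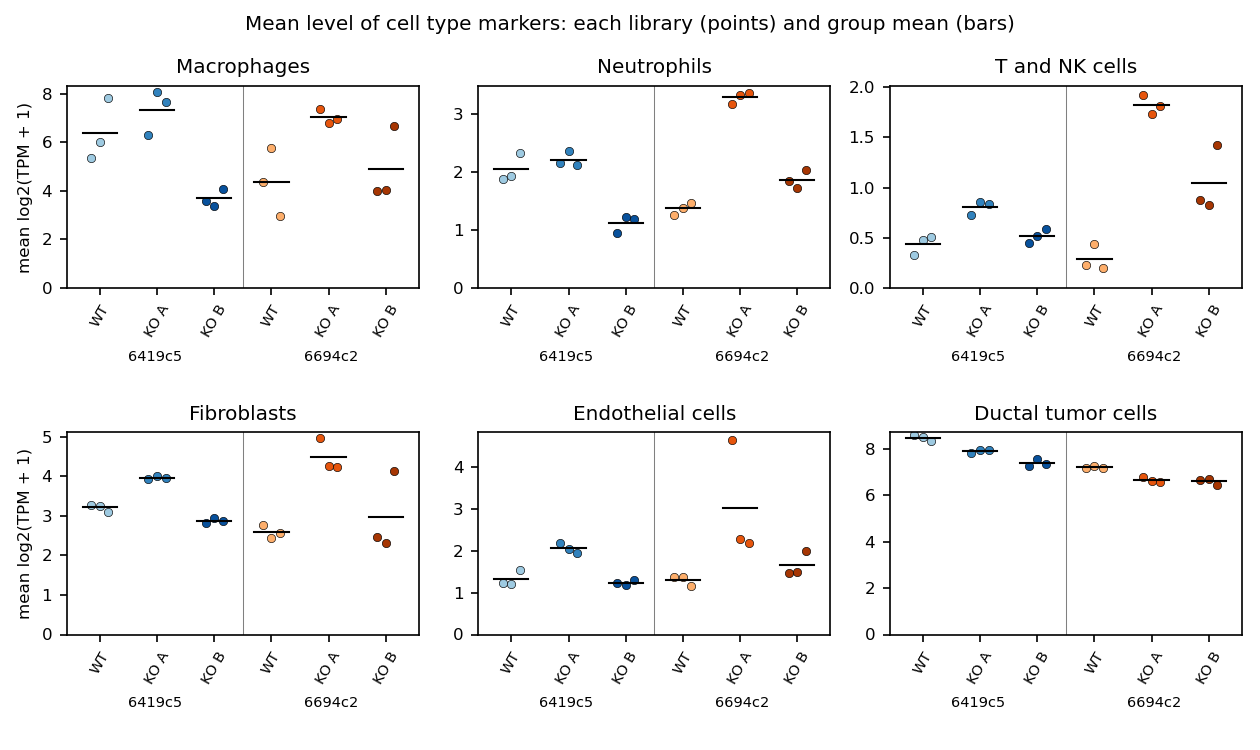
Mean log2(TPM + 1) of marker genes of other cell types in each library (y axis), by line and group (x axis), with 1 point per library. The macrophage index of clone B of 6419c5 lay between 3.39 and 4.09, below all 3 WT libraries of its line, while clone A of 6694c2 lay between 6.82 and 7.37, above all 3 WT libraries of its own line.

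The knockout effect differed between the lines for 1169 genes, 8.71% of those tested (limma, Benjamini-Hochberg adjusted p under 0.05), and 3267 genes had an unadjusted p under 0.05. The interaction was positive for 776 genes (5.78%), meaning that the knockout moved them further up, or less far down, in 6694c2, and negative for 393 (2.93%). Most of these genes responded in 6694c2 alone: 452 rose and 233 fell there without a called change in 6419c5. A further 146 fell and 84 rose in 6419c5 alone. In 106 genes both lines changed the same way but by unequal amounts, 84 of them rising and 22 falling, and the change was larger in 6694c2 for 88 of the 106. The lines changed in opposite directions for 51 genes, 0.38% of those tested, and 97 genes had an interaction with no called change in either line. These classes stand on line effects that called 533 rises (3.97%) and 457 falls (3.4%) in 6419c5 against 1967 rises (14.7%) and 777 falls (5.79%) in 6694c2.

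Part of the one-line responses were of genes that the other line hardly expressed. Of the 1169 called genes, 42 were under 1 TPM in every group of 6419c5 and 34 were under 1 TPM in every group of 6694c2. A fall could not be measured in such a line, nor well in one where WT stood near 1 TPM. The split into higher and lower also depended on the scaling of the libraries. TPM placed the median interaction of all genes at 0.14. Median-of-ratios scaling moved that median to -0.01 and the split to 533 positive and 768 negative calls, and quantile normalization moved it to -0.05 and the split to 416 and 763. The counts of rises and falls by line and by class given above are those of the TPM scaling only. Interactions are printed as fitted, with nothing subtracted, so small ones and medians of lists are to be read against the 0.14 of all genes.

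The clones of a line differed from each other, and the number of calls depended on how this was treated. Both clones of 6694c2 lay on 1 side of both clones of 6419c5 for 1095 of the 1169 called genes, and for 6621 of all tested genes (49.3%; 35.1% with 6694c2 above and 14.2% with it below). With the clone as a random block in limma, which treats the libraries of a group as correlated, 11 genes were called, with 729 at an unadjusted p under 0.05. They were Piezo2, Ube2e2, Sall1, Rab38, Kctd15, Cplx2, Smoc1, Fzd8 and R3hdml, lower in 6694c2, and Rhox5 and Olfm4, higher in 6694c2. With 1 mean per clone and 2 residual degrees of freedom, limma called 0 genes, with 293 at an unadjusted p under 0.05. The count moved most when a clone of 6419c5 was left out: without its clone B 326 genes were called and without its clone A 2854, against 734 without clone A of 6694c2 and 1595 without clone B of 6694c2.

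**Figure D2:**
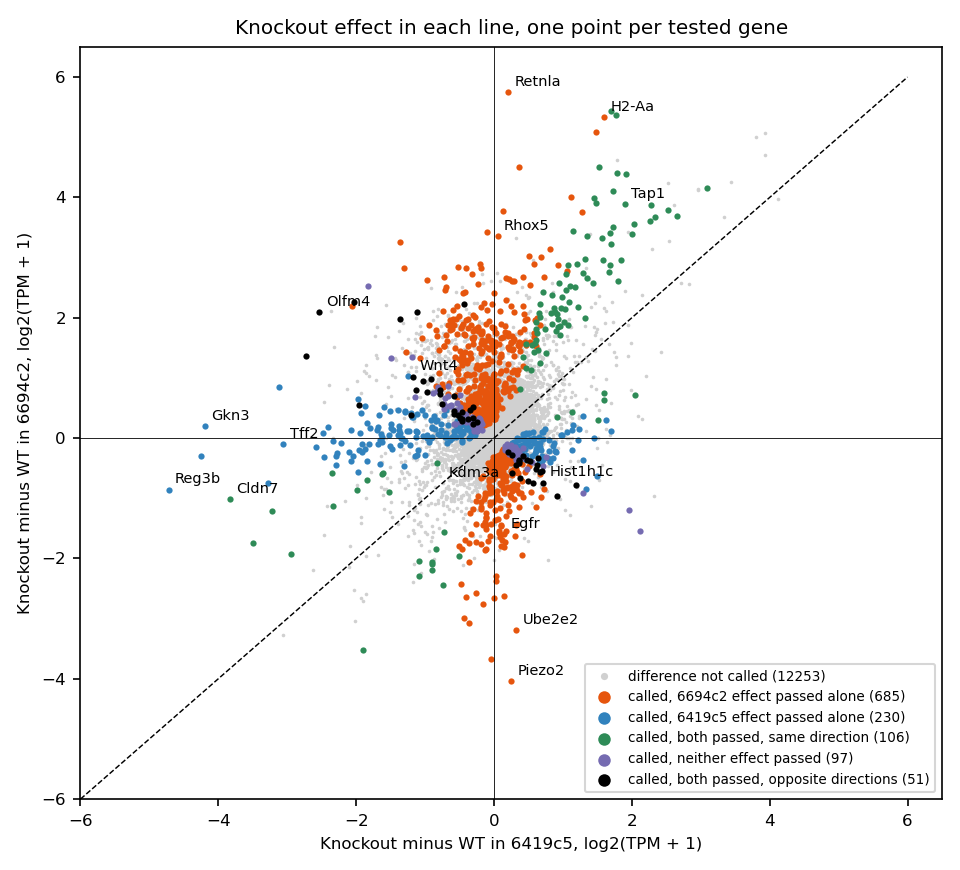
Knockout effect of each tested gene in 6419c5 (x axis) and 6694c2 (y axis), both as log2(TPM + 1) differences, colored by class of the interaction. Piezo2 and Ube2e2 lie far down at little change in 6419c5, Rhox5 and Retnla far up, Gkn3 far to the left, and Olfm4 and Wnt4 in the quadrant of opposite directions.

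A group of single genes was lost in 6694c2 while 6419c5 had no called change. It included Piezo2, a stretch-gated cation channel of touch and proprioception, Ube2e2, a ubiquitin-conjugating enzyme, Rab38, a small GTPase of lysosome-related organelles, and Kctd15, an inhibitor of the AP-2 transcription factors. All 4 were expressed in both WT lines and fell by between 2.65 and 4.04 on the log2 scale in 6694c2, in both clones.

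Piezo2 (chromosome 18, 63010213 to 63387183, minus strand, mm10) had 37.5, 34.3 and 58.4 TPM in 6694c2 WT, 2.76, 3.05 and 2.31 TPM in clone A, and 0.661, 0.776 and 1.2 TPM in clone B. In 6419c5 it had 9.48, 7.12 and 6.23 TPM in WT, 8.43, 7.92 and 7.2 TPM in clone A, and 10.8, 10.4 and 10.5 TPM in clone B. Each of the 6 knockout libraries of 6694c2 was thus lower than any WT library of either line, while in 6419c5 clone A overlapped WT and clone B lay above it. The interaction of Piezo2 was -4.29 (SE 0.23; limma, adjusted p = 8.81e-08), and -2.99 was its value closest to 0 among the alternatives run. Ube2e2 (chromosome 14, 18573575 to 18894267, minus strand) had 16.1, 11.7 and 17.8 TPM in 6694c2 WT and between 0.19 and 1.28 TPM in the 6 knockout libraries. In 6419c5 it had 21.6, 15.5 and 17.1 TPM in WT and 14.3 to 29.3 TPM in the knockouts. The knockout libraries of 6694c2 stood apart from all others, and the interaction of Ube2e2 was -3.52 (SE 0.28; limma, adjusted p = 4.24e-06).

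Rab38 (chromosome 7, 88430273 to 88491572, plus strand) had 12.6, 7.59 and 9.72 TPM in 6694c2 WT and 0.375 to 1.18 TPM in its knockouts, against 8.34 to 13.4 TPM in all 9 libraries of 6419c5. Kctd15, on the same chromosome at 34639014 to 34656732 (minus strand), had 10.1, 9.9 and 10.3 TPM in 6694c2 WT and 0.0312 to 1.33 TPM in the knockouts. In 6419c5 it had 20.2, 21.9 and 20.2 TPM in WT and 12.3 to 18.6 TPM in the knockouts, below WT in every library, though the fall of 0.36 there did not pass the test. The interactions were -2.65 for Rab38 (SE 0.23; adjusted p = 9.04e-06) and -2.71 for Kctd15 (SE 0.24; adjusted p = 1.33e-05, both limma). Smoc1, a secreted matrix protein that binds calcium and antagonises BMP signaling, had 17.5, 21.2 and 19.2 TPM in 6694c2 WT, 5.01 to 6.64 TPM in clone A and 2.64 to 3.7 TPM in clone B. In 6419c5 Smoc1 had 26.5 to 32.7 TPM in WT and 27.7 to 47.3 TPM in the knockouts, so the ranges overlapped there, and its interaction was -2.35 (SE 0.20; limma, adjusted p = 9.04e-06).

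Other genes lost in 6694c2 could not have fallen in 6419c5, since they were near 0 TPM there. Sall1, a zinc finger repressor of kidney and limb development, had 4.26, 6 and 7.8 TPM in 6694c2 WT and at most 0.173 TPM in its knockouts, and at most 0.406 TPM in any library of 6419c5. Cplx2, a complexin that regulates vesicle fusion, had 6.82, 6.44 and 7.56 TPM in 6694c2 WT and 0.369 to 0.753 TPM in the knockouts, with 0.0878 to 0.713 TPM in 6419c5. Fzd8, a Wnt receptor, had 6.17, 5.9 and 5.99 TPM in 6694c2 WT and 0.0437 to 1.1 TPM in the knockouts, with at most 0.314 TPM in 6419c5. Each of the 3 was thus highest in WT cells of 6694c2 by a wide margin, and their interactions of -2.78 (Sall1), -2.40 (Cplx2) and -2.32 (Fzd8) restate the fall in 6694c2.

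The growth factor receptor Egfr fell in 6694c2 alone. It had 17.5, 19.7 and 24.5 TPM in 6694c2 WT, 3.94, 9.38 and 7.38 TPM in clone A, and 5.5, 5.76 and 5.64 TPM in clone B. In 6419c5 Egfr had 24.4, 17.2 and 16.8 TPM in WT, 21.5, 21.8 and 23.1 TPM in clone A, and 22, 20.6 and 19.6 TPM in clone B. The 6694c2 groups did not overlap and the 6419c5 groups did, with an interaction of -1.74 (limma, adjusted p = 0.00103), which the random clone block did not call (limma, adjusted p = 0.21). Of the 12 tested genes of the EGFR ligand and receptor list, Egfr was the 1 called lower and Nrg1, a neuregulin that activates the related receptors ERBB3 and ERBB4, the 1 called higher (0.93). Trib2, a pseudokinase that recruits the COP1 ubiquitin ligase, fell by 2.99 in 6694c2, from 17.9, 18.4 and 23.8 TPM in WT to 3.85, 5.77 and 4.41 TPM in clone A and 0.24, 0.108 and 0.342 TPM in clone B. In 6419c5 Trib2 had 7.88 to 11.5 TPM in WT and 4.22 to 12.2 TPM in the knockouts. Further losses called in 6694c2 alone were those of Auts2, a regulator of neuronal development, Bmp2, a bone morphogenetic protein, and Slco3a1, an organic anion transporter. Their interactions were -2.24 (Auts2), -1.96 (Bmp2) and -2.59 (Slco3a1). Auts2 had 4.57 to 7.18 TPM in 6694c2 WT and 0.0233 to 0.28 TPM in its knockouts, against 10.4 to 27.5 TPM in 6419c5. Bmp2 had 7.34 to 9.93 TPM in 6694c2 WT and 0.0215 to 2.33 TPM in its knockouts, and in 6419c5 18.1 to 22.8 TPM in WT and 10.8 to 15.7 TPM in the knockouts, below WT there too though without a call. Slco3a1 had 21.2 to 22.8 TPM in 6694c2 WT and 0.292 to 9.97 TPM in its knockouts, against 16.3 to 53.6 TPM in 6419c5, where its clones lay on opposite sides of the WT mean.

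**Figure D3:**
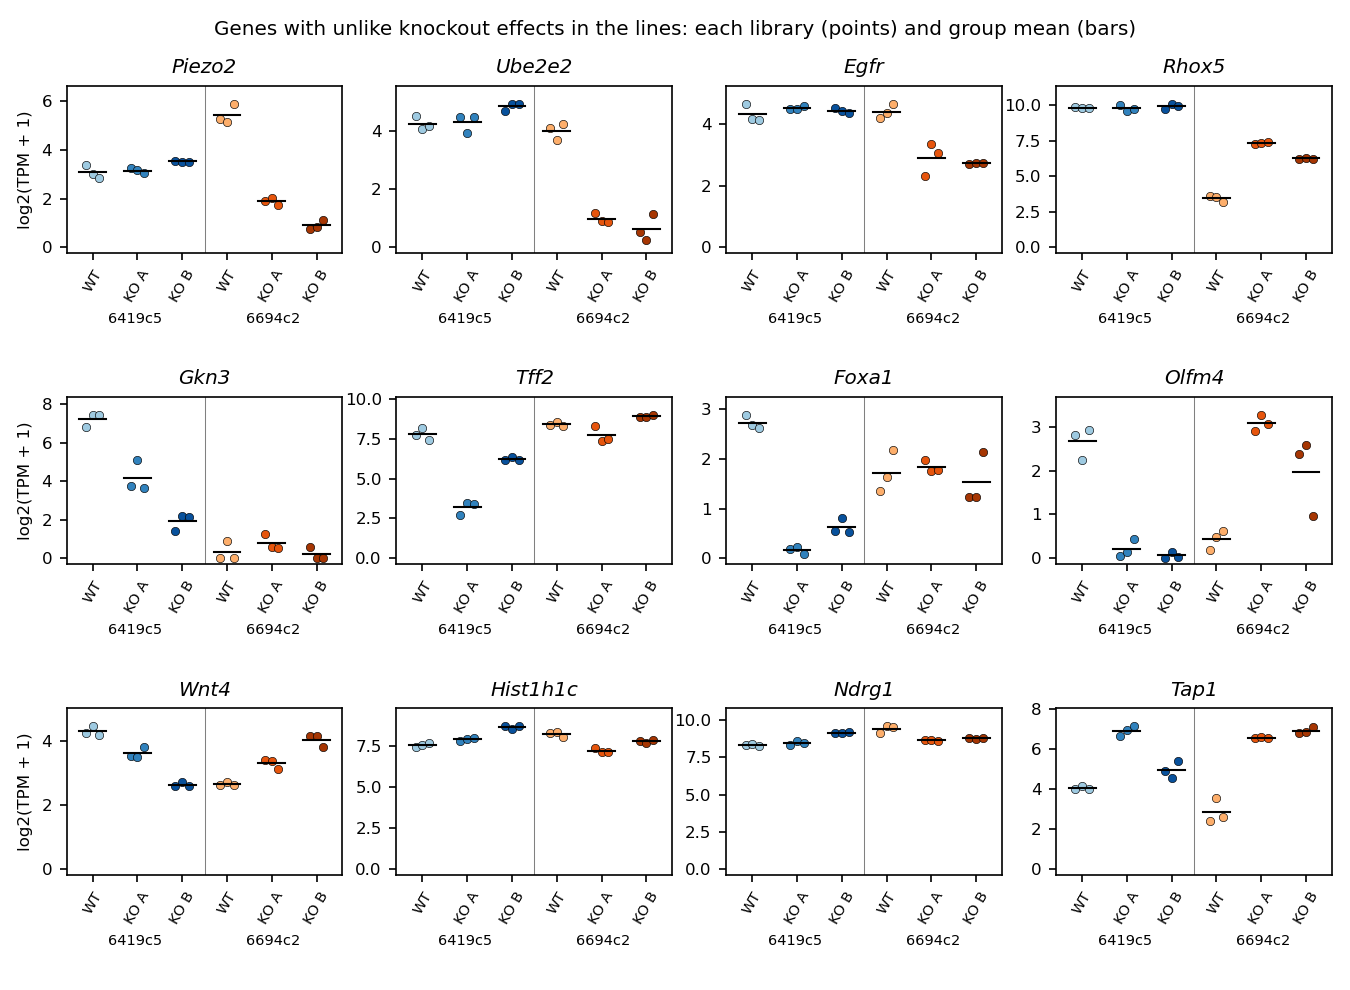
TPM of selected genes in each of the 18 libraries, on a log2(TPM + 1) axis, by line and group. Piezo2, Ube2e2 and Egfr fell in both clones of 6694c2 and not in 6419c5; Rhox5 rose in 6694c2 from a WT level far below that of 6419c5; Gkn3 fell in 6419c5 from a level that 6694c2 never had.

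Rhox5 rose in 6694c2 alone. It encodes a homeobox protein of the X-linked reproductive homeobox cluster that is normally expressed in testis and placenta and is a known target of gene silencing. Rhox5 (chromosome X, 37804842 to 37808876, plus strand) had 11.3, 10.8 and 7.94 TPM in 6694c2 WT, 156, 160 and 167 TPM in clone A, and 75.1, 78.6 and 74.6 TPM in clone B. In 6419c5 it had 969, 886 and 894 TPM in WT and 789 to 1106 TPM in the knockouts. The groups of 6694c2 did not overlap, those of 6419c5 did, and every library of 6419c5 lay above every library of 6694c2. The interaction of Rhox5 was 3.31 (SE 0.15; limma, adjusted p = 2.26e-08) and passed with the clone as a random block (limma, adjusted p = 0.00213). Adgrg7, an adhesion G protein-coupled receptor, rose from 0.198, 0.232 and 0.792 TPM in 6694c2 WT to 14.4 to 15.1 TPM in clone A and 10.9 to 17.9 TPM in clone B. In 6419c5 Adgrg7 had 2.79 to 9.87 TPM in WT, 7.06 to 12.9 TPM in clone A and 1.17 to 1.98 TPM in clone B, so the clones lay on opposite sides of the WT mean, and its interaction was 3.53 (limma, adjusted p = 0.000115).

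The largest positive interaction belonged to a gene of alternatively activated macrophages. Retnla, a secreted resistin-like protein, had 1.69, 2.38 and 1.48 TPM in 6694c2 WT, 525, 336 and 403 TPM in clone A, and 21.9, 23.8 and 302 TPM in clone B. In 6419c5 Retnla had 19.5, 22 and 159 TPM in WT, 90.5, 354 and 261 TPM in clone A, and 9.82, 8.22 and 14.6 TPM in clone B. Its interaction was 5.55 (SE 1.09; limma, adjusted p = 0.00616), and it was not called without clone B of 6419c5 or without clone A of 6694c2. Chil3, a chitinase-like protein of the same cells, had 0.596 to 1.8 TPM in 6694c2 WT, 63, 115 and 129 TPM in clone A, and 17.9, 17.6 and 34.4 TPM in clone B. In 6419c5 Chil3 had 2.72 to 5.59 TPM in WT, 9.92 to 18.6 TPM in clone A and 1.03 to 2.76 TPM in clone B. Both genes were high in the groups with a high macrophage index, and in a fit with that index as covariate the interactions were 3.12 for Retnla and 4.17 for Chil3, both still called. Of the 14 tested genes of this macrophage state, 4 were called higher in 6694c2 and 0 lower, and their median interaction of 2.95 was 0.35 in the fit with the macrophage index and 0.65 without clone B of 6419c5.

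Of 11 tested neutrophil genes, 7 were called higher in 6694c2 and 0 lower, with a median interaction of 1.83 and of 1.36 with the macrophage covariate. Of the 7, 5 rose in 6694c2 alone, among them S100a8 and S100a9, the subunits of calprotectin (interactions 3.61 and 2.84), the metalloproteinase gene Mmp9 (2.41) and the decoy receptor gene Il1r2 (1.83). S100a8 had 0.38 to 6 TPM in 6694c2 WT, 20.1 to 74.8 TPM in clone A and 5.34 to 12.5 TPM in clone B, against 4.89 to 18.7 TPM in 6419c5 WT and 2.8 to 11 TPM in its knockouts. Mmp9 had 8.25 to 13.3 TPM in 6694c2 WT, 73.5 to 128 TPM in clone A and 9.03 to 29.1 TPM in clone B, against 18.6 to 32 TPM in 6419c5 WT, 38.2 to 44.5 TPM in clone A and 5.05 to 6.5 TPM in clone B. For both genes clone B of 6694c2 overlapped its WT and clone A did not. The other 2 fell in 6419c5 alone: Ltf, lactoferrin (-2.59 in 6419c5), and Lcn2, lipocalin 2 (-1.35), secreted proteins that epithelial cells also make. Without clone B of 6419c5 the called members of this list were 2, and without clone A of 6694c2 1. They were 10 when clone A of 6419c5 or clone B of 6694c2 was left out instead. The 9 tested genes of T and natural killer cells held 3 called higher (Cd2 at 2.53, Il2rb at 1.39 and Gzma at 1.36). These calls numbered 0 without clone A of 6694c2, 2 without clone B of 6419c5 and 1 with the macrophage covariate. They numbered 5 without clone A of 6419c5 and 7 without clone B of 6694c2. The 24 chemokine genes held 4 called higher (Ccl24, Cxcl2, Ccl22 and Cxcl3) and 0 lower. Positive chemokine calls numbered 0 without clone B of 6419c5 or without clone A of 6694c2, and 2 with the macrophage covariate. They numbered 14 when clone A of 6419c5 or clone B of 6694c2 was left out.

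Many but not all genes of gastric and secretory epithelium were lowered in 6419c5, several of them nearly absent from 6694c2. Genes called in 6419c5 and not in 6694c2 included the gastrokines Gkn1 and Gkn3, secreted proteins of the stomach mucosa, Tff2, a trefoil peptide that stabilises mucus, Agr2, a disulfide isomerase for mucin folding, Spdef, a transcription factor of goblet cells, and Foxa1, a pioneer factor of endoderm. The regenerating proteins Reg1, Reg3b and Reg3g, which acinar and inflamed epithelia secrete, fell in 6419c5 as well. Gkn1 had 81.6, 97.7 and 110 TPM in 6419c5 WT, 17.5 to 40.7 TPM in clone A and 3.67 to 4.41 TPM in clone B, but 0.0767 to 0.62 TPM in 6694c2 WT. Spdef had 10.1 to 11.9 TPM in 6419c5 WT and 0.136 to 3.61 TPM in its knockouts, but 0.346 to 1.25 TPM in 6694c2 WT. For these and for Gkn3 and Agr2, described below, a fall in 6694c2 could hardly be measured, so their calls do not show that 6694c2 was spared. Of the 40 tested genes of the classical pancreatic tumor subtype, 13 were called with a positive interaction and 1, the endoderm factor Gata4, with a negative one, with a median of 0.35. In 6419c5 itself, 19 of the 40 fell and 1 rose, and in 6694c2 9 fell and 3 rose.

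Tff2 (chromosome 17, 31141049 to 31144282, minus strand) was abundant in both lines. It had 212, 296 and 169 TPM in 6419c5 WT, 5.68, 10.2 and 9.73 TPM in clone A, and 71.5, 82.2 and 71 TPM in clone B. In 6694c2 Tff2 had 338, 381 and 316 TPM in WT, 325, 165 and 181 TPM in clone A, and 468, 463 and 516 TPM in clone B. The 6419c5 groups did not overlap, clone A of 6694c2 overlapped WT and clone B lay above it, and the interaction was 2.96 (SE 0.30; limma, adjusted p = 4.14e-05). Foxa1 (chromosome 12, 57540628 to 57546916, minus strand) had 6.41, 5.43 and 5.18 TPM in 6419c5 WT, 0.0539 to 0.162 TPM in clone A and 0.432 to 0.747 TPM in clone B. In 6694c2 Foxa1 had 1.55, 2.11 and 3.56 TPM in WT and 1.33 to 3.38 TPM in the knockouts, which overlapped, and its interaction was 2.30 (SE 0.30; limma, adjusted p = 0.000276).

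Reg3b had 109, 61.2 and 50.9 TPM in 6419c5 WT, 1.94, 1.68 and 2.13 TPM in clone A, and 0.415, 7.62 and 0.245 TPM in clone B. In 6694c2 it had 16, 32.1 and 18.7 TPM in WT, 24.7, 15.2 and 19 TPM in clone A, and 5.64, 4.72 and 10.2 TPM in clone B, so clone B of 6694c2 also lay below its WT. The interaction of Reg3b was 3.87 (limma, adjusted p = 0.00316), from effects of -4.72 in 6419c5 and -0.86 in 6694c2, the latter without a call. Gkn3 had 111, 175 and 173 TPM in 6419c5 WT, 12.5, 33.5 and 11.6 TPM in clone A, and 1.69, 3.49 and 3.45 TPM in clone B. In 6694c2 Gkn3 was listed at 0 to 1.37 TPM in every library, and its interaction of 4.39 (limma, adjusted p = 5.78e-05) restates the fall in 6419c5. Agr2, with 125, 131 and 176 TPM in 6419c5 WT and 12.3 to 49.2 TPM in the knockouts, was at 0.654 to 10.1 TPM in 6694c2, with an interaction of 2.58. Gkn2, another gastrokine, had 64.2, 102 and 126 TPM in 6419c5 WT and 13.7 to 45.8 TPM in its knockouts. That fall of 2.06 was not called (limma, adjusted p = 0.115). The call of Gkn2 in 6694c2 (2.20) rested on libraries that ran from 2.79 to 65.1 TPM.

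Most adhesion genes had no called difference between the lines. The shares with a called positive and a called negative interaction were nonetheless larger than the 5.78% and 2.93% of all tested genes. Of 36 tested genes of epithelial adhesion and tight junctions, 12 fell in 6419c5 and 17 in 6694c2, and 26 had no called interaction. A positive interaction was called for 6 and a negative one for 4, with a median of -0.07; median-of-ratios scaling called 6 and 7. The positive ones were Cldn7, Cldn4 and Cldn3, which encode claudins of the tight junction (interactions 2.82, 2.15 and 2.14), the protease inhibitor Spint1 (2.04) and its protease St14 (1.13), and the transcription factor Ehf (1.63), which had no called change in either line. Cldn7 had 28.4, 33.6 and 30.9 TPM in 6419c5 WT and 0.48 to 1.96 TPM in the knockouts, against 1.18 to 3.04 TPM in 6694c2 WT and 0 to 1.25 TPM in its knockouts. Cldn4 had 14.6 to 15.7 TPM in 6419c5 WT and 0.0955 to 1.71 TPM in 6694c2 WT, Cldn3 had 11.8 to 16.5 TPM and 0.294 to 2.05 TPM, and St14 had 5.18 to 6.47 TPM and 1.34 to 2.15 TPM. With such low levels in 6694c2 WT, a fall of these genes there had little room to show. Cldn7 and St14 were nonetheless called lower in both lines, by 1.01 and 0.86 in 6694c2. Spint1 had 18.2 to 24.1 TPM in 6419c5 WT, 11.7 to 25 TPM in clone A and 1.13 to 2.3 TPM in clone B, against 1.25 to 3.89 TPM in 6694c2 WT and 1.23 to 8.28 TPM in its knockouts, so its fall rested on clone B of 6419c5. The negative ones were called lower in 6694c2 and had no called change in 6419c5. They were Marveld2 (-1.69) and Ocln (-1.28), which encode tricellulin and occludin of the tight junction. The others were Pkp1 (-1.38) and Dsp (-1.19), which encode desmosomal plaque proteins. In clone B of 6419c5 the effects were -0.57 for Marveld2, -0.95 for Ocln, -0.61 for Pkp1 and 0.41 for Dsp. In clone A of 6419c5 they lay between -0.16 and 0.06. The keratin list held 0 called of 8 tested.

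Genes that rose in 6419c5 alone were fewer. Cdhr1, a photoreceptor protocadherin, had 1.73, 0.89 and 0.923 TPM in 6419c5 WT, 3.7, 4.51 and 4.05 TPM in clone A, and 6.08, 9.73 and 7.31 TPM in clone B, and it stayed under 1 TPM in all libraries of 6694c2. Spon2, a secreted spondin of innate immunity, had 8.83, 8.62 and 7.81 TPM in 6419c5 WT, 18.2, 19.1 and 17 TPM in clone A, and 36.8, 37.5 and 34.4 TPM in clone B. In 6694c2 Spon2 had 24.7, 22.7 and 18 TPM in WT and 24.1 to 29.7 TPM in the knockouts, a rise of 0.31 that passed the test, so the lines differed in size and not in direction. The interactions were -1.31 for Cdhr1 (adjusted p = 0.00298) and -1.20 for Spon2 (adjusted p = 6.95e-05, both limma). Ces3a, a carboxylesterase, and Syt12, a synaptotagmin, rose by 1.69 and 0.81 in 6419c5, with interactions of -1.58 and -1.21. Ces3a had 2.57 to 7.68 TPM in 6419c5 WT, 5.94 to 9.38 TPM in clone A and 21.9 to 54.9 TPM in clone B, and at most 0.256 TPM in 6694c2. Syt12 had 5.29 to 7.05 TPM in 6419c5 WT and 9.81 to 15.1 TPM in its knockouts, against 11.3 to 12 TPM in 6694c2 WT and 5.55 to 13.1 TPM in its knockouts.

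The lines moved in opposite directions for 51 genes, of which 30 fell in 6419c5 and rose in 6694c2 and 21 did the reverse. The first kind held Olfm4, an intestinal stem cell glycoprotein, Wnt4, a secreted Wnt ligand, Il1b, the cytokine interleukin 1 beta, Vtcn1, the immune checkpoint ligand B7-H4, and Ildr2, an immunoglobulin-like membrane protein. The second held linker and core histone genes, the stress gene Ndrg1, the collagen cross-linking enzyme gene Loxl2, and Fgf2, a fibroblast growth factor.

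Olfm4 (chromosome 14, 79984081 to 80023139, plus strand) had 6.03, 3.76 and 6.66 TPM in 6419c5 WT and 0 to 0.348 TPM in its 6 knockout libraries. In 6694c2 it had 0.145, 0.398 and 0.537 TPM in WT, 6.51, 8.66 and 7.36 TPM in clone A, and 4.24, 4.95 and 0.952 TPM in clone B. The groups of each line did not overlap, and the knockout levels of one line resembled the WT levels of the other. The interaction of Olfm4 was 4.63 (SE 0.40; limma, adjusted p = 9.11e-06), and this was the 1 opposite-direction gene called with the clone as a random block (limma, adjusted p = 0.0109). Wnt4 (chromosome 4, 137277489 to 137299726, plus strand) had 17.8, 21.1 and 17 TPM in 6419c5 WT, 10.6, 10.3 and 13.1 TPM in clone A, and 5.04, 5.52 and 4.99 TPM in clone B. In 6694c2 Wnt4 had 5.1, 5.54 and 5.14 TPM in WT, 9.6, 9.23 and 7.73 TPM in clone A, and 16.8, 16.7 and 13.1 TPM in clone B. No knockout library overlapped the WT libraries of its line, and the interaction of Wnt4 was 2.19 (SE 0.16; limma, adjusted p = 1.45e-06).

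For other members of this kind the fall in 6419c5 rested on clone B. Ildr2 (chromosome 1, 166254139 to 166316823, plus strand) had 9.13, 6.78 and 7.6 TPM in 6419c5 WT, 13.2, 8.13 and 8.39 TPM in clone A, and 0.0721 to 0.117 TPM in clone B. In 6694c2 it rose from 0.841 to 1.59 TPM in WT to 4.87 to 6.84 TPM in clone A and 9.36 to 9.64 TPM in clone B, with an interaction of 3.34 (limma, adjusted p = 7.93e-07). Vtcn1 had 16.1, 12.4 and 15.2 TPM in 6419c5 WT, 13.2, 12.2 and 12.3 TPM in clone A, and 3.17, 3.12 and 3.28 TPM in clone B, while in 6694c2 it rose from 5.54 to 8.06 TPM in WT to 11.3 to 16.4 TPM in the knockouts. Both genes were called without clone B of 6419c5, but then by the rise in 6694c2, since clone A of 6419c5 overlapped WT. Il1b had 12.5, 14.9 and 29.2 TPM in 6419c5 WT, 12.5, 14.3 and 13.5 TPM in clone A, and 3.12, 5.14 and 4.31 TPM in clone B. In 6694c2 it rose from 6.32 to 6.75 TPM in WT to 82.1, 54.9 and 68.9 TPM in clone A and 12.3, 13.8 and 16.8 TPM in clone B, and its interaction of 3.21 was 2.79 with the macrophage covariate. Without clone B of 6419c5, 14 genes were called in opposite directions in place of 51.

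The histone genes Hist1h1c, Hist1h2bc and Hist1h2ad rose in 6419c5 and fell in 6694c2. Hist1h1c, a linker histone, had 173, 186 and 199 TPM in 6419c5 WT, 215, 238 and 253 TPM in clone A, and 415, 362 and 406 TPM in clone B. In 6694c2 it had 311, 324 and 265 TPM in WT, 162, 138 and 138 TPM in clone A, and 217, 205 and 233 TPM in clone B. No knockout library overlapped WT in either line, and the interaction of Hist1h1c was -1.45 (SE 0.12; limma, adjusted p = 7.4e-06). Hist1h2bc and Hist1h2ad, core histones, had interactions of -1.31 and -1.88. The Hist family was examined after the values of these 3 had been seen. Of its 68 tested genes, 0 were called positive and 6 negative, and these 3 were the ones called in opposite directions. In the family 53 interactions were negative, and the median was -0.61. Over all tested genes 5.78% were called positive and 2.93% negative, and most interactions were positive. The family's share of calls in either direction was near the 8.71% of all genes. Histone transcripts mostly lack poly(A) tails and have near-identical copies, so how the library kit and the counting treated them bears on these values and was not tested.

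Ndrg1 (chromosome 15, 66929318 to 66969640, minus strand) had 321, 327 and 298 TPM in 6419c5 WT, 322, 380 and 349 TPM in clone A, and 564, 561 and 573 TPM in clone B. In 6694c2 it had 560, 774 and 727 TPM in WT and 385 to 442 TPM in the knockouts. Clone A of 6419c5 overlapped WT, the other 3 clones did not, and the interaction of Ndrg1 was -1.20 (SE 0.12; limma, adjusted p = 2.88e-05). Loxl2 had 46.2, 42.1 and 37.4 TPM in 6419c5 WT and 46.9 to 65.9 TPM in the knockouts, and 94.3, 92.1 and 109 TPM in 6694c2 WT and 66.8 to 84.5 TPM in the knockouts. No knockout library of either line overlapped WT for Loxl2, whose interaction was -0.90. Fgf2 (plus strand) and Nudt6 (minus strand) overlap at their ends on chromosome 3, at 37348346 to 37410108 and 37404910 to 37420211, with interactions of -1.96 and -1.06. Whether the counting used strand is not given in the sources used here, so reads of this pair may be shared and their changes may not be separate.

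Interferon and antigen presentation genes rose in both lines, and more in 6694c2. Of the 30 tested genes of the interferon gamma list, 17 had a called positive interaction and 0 a negative one, and of the 39 type I interferon genes 19 and 0. These shares compare with 5.78% and 2.93% of all tested genes. The median interactions were 1.13 and 0.91. In 6419c5, 27 and 24 of these genes rose, with median effects of 1.68 and 0.66, and in 6694c2 29 and 36 rose, with medians of 2.94 and 1.64. These are lists in which the response of the lines was known from these data when they were drawn up, so their direction is not independent evidence.

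The promoters of 3 responsive genes are shown because they hold the sequences through which interferons act. They are RefSeq sequences of build GRCm38.p6 (mm10), 250 bases before to 50 after the gene start, in gene direction, with the ISRE core (GAAA, any 2 bases, GAAA) and the GAS core (TTC, any 3 bases, GAA) in capitals where found on either strand; the 2 motifs can overlap. Oas1a lies at chr5:120907476-120907775 (minus strand), Igtp at chr11:58199306-58199605 (plus strand) and Bst2 at chr8:71537423-71537722 (minus strand).
Oas1a: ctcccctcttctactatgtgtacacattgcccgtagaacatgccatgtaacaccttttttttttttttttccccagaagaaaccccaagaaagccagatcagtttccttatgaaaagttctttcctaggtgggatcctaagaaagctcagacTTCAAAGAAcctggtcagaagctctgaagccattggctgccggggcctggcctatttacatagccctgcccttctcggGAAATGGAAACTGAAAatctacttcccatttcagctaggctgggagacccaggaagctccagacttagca
Igtp: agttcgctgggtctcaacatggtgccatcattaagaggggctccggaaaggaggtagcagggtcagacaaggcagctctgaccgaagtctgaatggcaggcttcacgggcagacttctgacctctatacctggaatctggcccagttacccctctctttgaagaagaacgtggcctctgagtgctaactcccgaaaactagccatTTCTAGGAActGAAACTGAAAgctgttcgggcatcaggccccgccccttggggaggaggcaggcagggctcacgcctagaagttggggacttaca
Bst2: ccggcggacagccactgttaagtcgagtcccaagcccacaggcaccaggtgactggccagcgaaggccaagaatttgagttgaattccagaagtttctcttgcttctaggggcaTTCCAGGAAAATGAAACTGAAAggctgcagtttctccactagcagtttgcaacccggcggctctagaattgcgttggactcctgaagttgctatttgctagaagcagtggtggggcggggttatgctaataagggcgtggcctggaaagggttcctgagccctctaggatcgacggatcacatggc
In Igtp and Bst2 a GAS core lies close beside or over the ISRE core. Of the 10211 tested genes with such a window, 3.99% held the ISRE core and 8.55% the GAS core. Among genes with a called positive interaction 9.9% (58 of 586) held the ISRE core, and among those with a called negative one 1.85% (5 of 271). Among genes with a called interaction that also changed in the same direction in both lines, 27.8% (20 of 72) held it. The GAS core was in 10.8%, 7.75% and 16.7% of these. Within the interferon lists the share with the ISRE core was 63.6% for called and 50% for other interferon gamma genes (7 of 11 and 4 of 8), and 57.1% and 42.9% for type I genes (8 of 14 and 6 of 14). A match describes letters in a window and says nothing of binding.

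The promoter sequences belong to genes with distinct responses. Oas1a, a sensor of double-stranded RNA, rose in 6694c2 alone: it had 3.62, 6.77 and 2.99 TPM in WT, 29, 19.1 and 19.8 TPM in clone A, and 20.4, 17.8 and 23.7 TPM in clone B. In 6419c5 Oas1a had 17.4, 22.6 and 24.1 TPM in WT, 32.2, 54.3 and 43.3 TPM in clone A, and 15.7, 13.5 and 18.6 TPM in clone B, so clone A lay above WT and clone B overlapped it. Igtp, an immunity-related GTPase induced by interferon gamma, rose in all 4 clones, from 14.4 to 19 TPM in 6419c5 WT to 94.4, 115 and 123 TPM in clone A and 53.2, 48.2 and 74 TPM in clone B. In 6694c2 it rose from 8.45 to 14.3 TPM in WT to 95.7 to 114 TPM in clone A and 170 to 176 TPM in clone B. The interactions were 1.81 for Oas1a (adjusted p = 0.00229), 1.35 for Igtp (adjusted p = 0.00243) and 1.35 for Bst2, the virion tether tetherin (adjusted p = 0.00206, all limma). Bst2 had 126 to 197 TPM in 6419c5 WT, 300.3 to 370 TPM in clone A and 157 to 213 TPM in clone B, which overlapped WT, and rose from 51.7 to 84.5 TPM in 6694c2 WT to 244 to 311 TPM in its knockouts.

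Ifi47, another immunity-related GTPase, had 24.3 to 31.8 TPM in 6419c5 WT, 96.3 to 116 TPM in clone A and 56.2 to 70.1 TPM in clone B. In 6694c2 Ifi47 had 4.75 to 6.09 TPM in WT, 56.8 to 59.2 TPM in clone A and 66.2 to 79.8 TPM in clone B. The knockouts of 6694c2 thus overlapped clone B of 6419c5, lay below clone A, and started from a lower WT level, with an interaction of 1.76 (SE 0.15; limma, adjusted p = 8.77e-06). Usp18, a deISGylase that limits type I signaling, had 5.05 to 6.29 TPM in 6419c5 WT and 8.37 to 16.2 TPM in its knockouts, 2.18 to 2.94 TPM in 6694c2 WT and 18.7 to 22.9 TPM in its knockouts.

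Over the lists, the lines differed in WT more than in the knockouts. The median member of the interferon gamma list was -0.78 in 6694c2 WT relative to 6419c5 WT, and 0.28 in the knockouts of 6694c2 relative to those of 6419c5. For type I genes these values were -0.89 and 0.16, for MHC class I genes -0.75 and 0.09, and for MHC class II genes -2.27 and 0.36, against -0.22 and -0.02 over all genes. They share the WT libraries with the interaction and are a description of where it arose. By clone, the median effects on the interferon gamma list were 2.15 (A) and 1.28 (B) in 6419c5 and 2.82 (A) and 3.26 (B) in 6694c2. On the type I list they were 1.10 and 0.33 in 6419c5 and 1.71 and 1.61 in 6694c2.

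**Figure D4:**
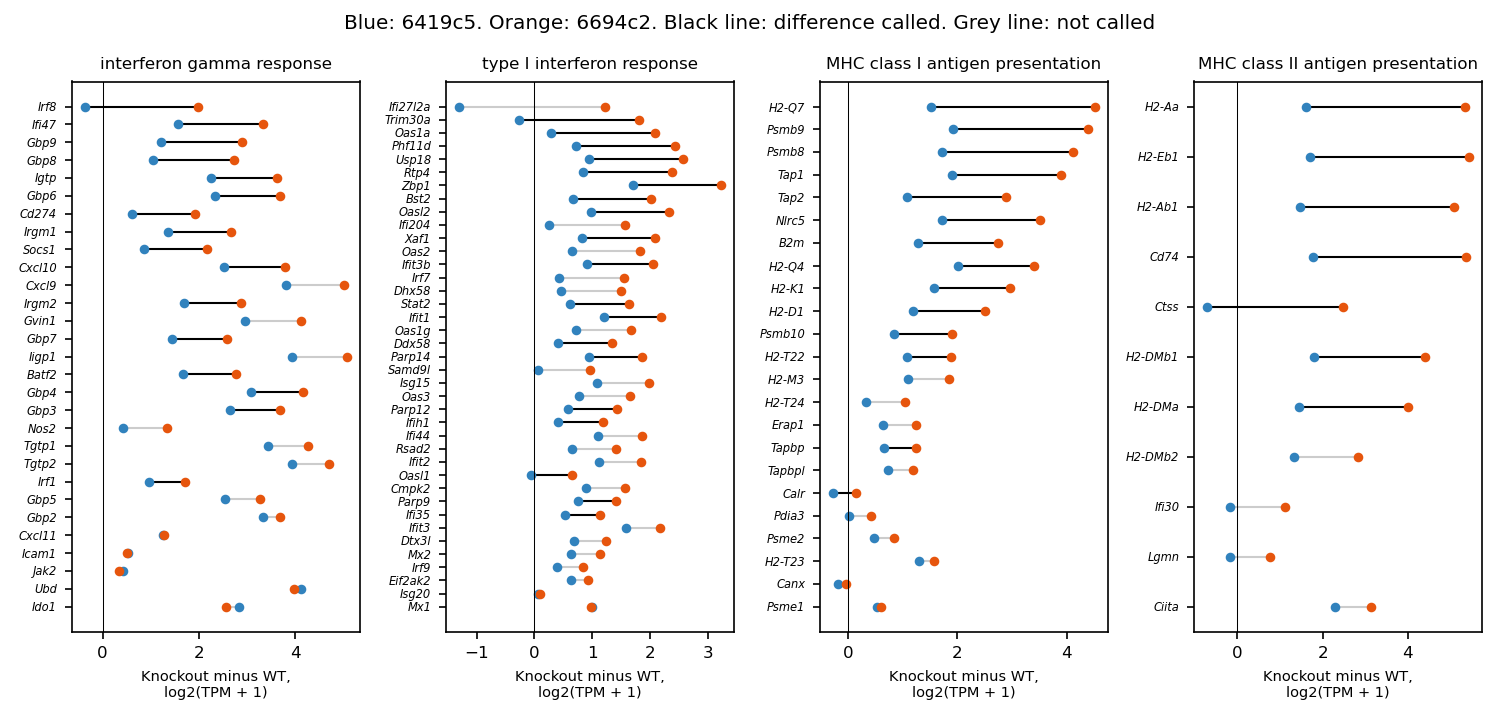
Knockout effect (x axis, log2(TPM + 1) difference from WT, both clones together) of members of the interferon and MHC lists (y axis) in 6419c5 (blue) and 6694c2 (orange), joined by a black line where the interaction was called and by a grey one where it was not. Most orange points lie to the right of the blue ones, and the median effects over the whole interferon gamma list were 1.68 in 6419c5 and 2.94 in 6694c2.

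MHC class I genes followed. Of 23 tested, 14 were called with a positive interaction and 0 with a negative one, with a median of 0.80. Tap1, a subunit of the peptide transporter, had 14.8, 17 and 15.1 TPM in 6419c5 WT, 101, 123 and 142 TPM in clone A, and 29.4, 22.8 and 41.8 TPM in clone B. In 6694c2 it had 4.34, 10.6 and 5.17 TPM in WT, 93.2, 97.7 and 92.1 TPM in clone A, and 112, 114 and 138 TPM in clone B. The libraries of all 4 clones lay above WT, and clone A of 6419c5 reached the level of the 6694c2 knockouts, with an interaction of 2.0 (SE 0.30; limma, adjusted p = 0.00108). Psmb8, an immunoproteasome subunit (2.38), Nlrc5, the class I transactivator (1.78), and B2m, the class I light chain (1.46), were also called.

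The class I-like gene H2-Q7 had 3.19, 1.84 and 3.16 TPM in 6419c5 WT, 37.7, 39.2 and 58.5 TPM in clone A, and 1.06, 1.13 and 2.36 TPM in clone B. In 6694c2 it had 2.39, 1.66 and 2.06 TPM in WT and 55.7 to 79.9 TPM in the knockouts. It rose in 3 clones and overlapped WT in clone B of 6419c5, with an interaction of 2.99 (limma, adjusted p = 1.58e-05); it has close relatives in the H2-Q cluster, with which reads may be shared. Without clone B of 6419c5, the calls for H2-Q7, Tap1, Psmb8 and B2m were lost, and the called members were 1 of 23 for MHC class I (median 0.48), 6 of 30 for interferon gamma (0.60) and 3 of 39 for type I interferon (0.45). Without clone A of 6419c5 they were 19, 21 and 33.

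MHC class II genes had the largest median of the pathway lists, 2.61, with 7 of 11 called positive and 0 negative. Cd74, the invariant chain, had 320, 362 and 676 TPM in 6419c5 WT, 1986, 3665 and 3857 TPM in clone A, and 753, 398 and 1136 TPM in clone B. In 6694c2 it had 34.7, 117 and 23.7 TPM in WT, 2609, 1775 and 1706 TPM in clone A, and 1632, 1608 and 2633 TPM in clone B. Every knockout library lay above WT except that clone B of 6419c5 overlapped it, and the interaction of Cd74 was 3.61 (SE 0.63; limma, adjusted p = 0.00289). H2-Aa and H2-Eb1, which encode chains of the class II heterodimers, each had one of 3.73. Ciita, the class II transactivator, rose by 2.29 in 6419c5 and by 3.15 in 6694c2, and its interaction of 0.85 did not pass (95% interval 0.15 to 1.56; limma, adjusted p = 0.126). Macrophages express class II genes too: with the macrophage index as a covariate the list's median was 1.58 with 7 called, and without clone B of 6419c5 it was 1.47 with 1 called. With that covariate the medians of the interferon gamma, type I and class I lists were 1.19, 0.71 and 0.83, against 1.13, 0.91 and 0.80 without it. The called members were then 15, 15 and 12 positive, against 17, 19 and 14, with 1 type I gene called negative.

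The pathway lists described next had median interactions of smaller size than the interferon and MHC lists, though single members had large ones. The hypoxia, glycolysis, cholesterol, lipid, YAP and TGF-beta lists each still held a larger share of calls than the 8.71% of all genes. So did the immediate early, imprinted, Wnt and channel lists. Of 24 hypoxia genes, 4 were called negative and 0 positive (median -0.25): Ndrg1 and Loxl2, described above, Car9, a carbonic anhydrase that HIF induces, and Ak4, a mitochondrial adenylate kinase. Car9 had 77.7, 81.3 and 79.6 TPM in 6419c5 WT and 85.3 to 137 TPM in the knockouts, and 208, 233 and 202 TPM in 6694c2 WT and 82.3 to 132 TPM in the knockouts. Its groups did not overlap in either line, and the interaction was -1.51 (SE 0.17; limma, adjusted p = 8.12e-05), although the rise in 6419c5 did not pass. Ak4 fell by 1.85 in 6694c2, from 5.72 to 6.37 TPM in WT to 0.338 to 1.64 TPM in the knockouts, and the clones of 6419c5 lay on opposite sides of WT. In WT the median hypoxia gene was 1.11 higher in 6694c2. Glycolysis held 2 called negative of 20 (Pfkp and Tpi1), cholesterol synthesis 3 of 23 (Fdft1 and Srebf2 among them, median -0.41) and lipid metabolism 2 of 18, with 0 positive in each. Median-of-ratios scaling called 4, 9 and 4 of these lower.

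YAP and TEAD targets held 6 negative calls and 1 positive among 16 (median -0.37). Ptpn14, a phosphatase that restrains YAP, fell in 6694c2 alone, from 6.89 to 9.71 TPM in WT to 2.09 to 3.45 TPM in clone A and 1.36 to 1.81 TPM in clone B, while 6419c5 had 15.4 to 19.8 TPM in WT and 13.6 to 22.2 TPM in the knockouts. Its interaction was -1.58 (SE 0.19; limma, adjusted p = 0.000162). The positive member was Ctgf, a matricellular protein, which fell by 0.46 in 6419c5 and rose by 0.28 in 6694c2, its fall resting on clone B of 6419c5 (-0.96, with 0.04 in clone A). The TGF-beta list held 5 negative calls and 1 positive among 19 (median -0.24): the inhibitor Smad7 (-0.58) fell in 6694c2 alone, while Id1, Ltbp1 and Bmp4 rose in 6419c5 alone. Id2, a helix-loop-helix inhibitor, was the positive one (0.78). Without clone B of 6419c5 the TGF-beta list held 0 calls and the YAP list 2.

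Immediate early genes fell mainly in 6419c5. Of 22, 5 were called positive and 0 negative (median 0.72), and 12 fell in 6419c5 against 2 in 6694c2. Atf3, a stress-induced transcription factor, had 74.8, 85.1 and 74.1 TPM in 6419c5 WT, 26.5, 59.4 and 37.3 TPM in clone A, and 10.4, 11.1 and 13.4 TPM in clone B, against 44.5 to 48.3 TPM in 6694c2 WT and 29.5 to 73.4 TPM in its knockouts. The 6419c5 groups did not overlap and those of 6694c2 did, with an interaction of 1.72 (limma, adjusted p = 0.00243). Nr4a1 and Fosb, transcription factors induced within minutes of a stimulus, had interactions of 2.22 and 1.83. Without clone B of 6419c5 the list's median was 0.03 with 0 called. These genes also respond to the handling of cells, and the part of sorting in them was not tested.

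Imprinted, Wnt and channel genes held calls in each direction, and each list held a larger share of calls than the 8.71% of all genes. Dio3os, a noncoding RNA of an imprinted locus, fell in both lines, from 5.99 to 7.78 TPM to at most 0.194 TPM in 6419c5 and from 4.44 to 5.38 TPM to 0.327 to 0.841 TPM in 6694c2, with an interaction of 1.01 (limma, adjusted p = 0.00646). Its neighbor Dio3, a deiodinase that inactivates thyroid hormone, had one of 1.16; the annotation places the pair next to each other on opposite strands of chromosome 12, without overlap. Of 10 imprinted genes, 3 were called positive (Dio3, Dio3os and Mest) and 1 negative (Igf2r). Of 19 Wnt pathway genes, 3 were called positive (Wnt4, Wnt7b and Wnt10a) and 1 negative (Wnt7a, -1.16), so the ligands did not move as 1 set. Of 24 channel and transporter genes, 4 were called negative (Piezo2, Slco3a1, Clic6 and Ano1) and 2 positive (Gabrp and Kcnk1).

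The lists below held few calls in number, and their shares are to be read against the 8.71% of all genes. The ribosomal, oxidative phosphorylation, lysine 9 methylation, NRF2, endothelial and muscle lists lay below that share. The other lists named here with 5 or more tested members lay above it, with complement, ductal and dendritic cell genes furthest above. The 40 cytosolic ribosomal protein genes held 0 calls (limma; median 0.07 against 0.14 over all genes). Of 30 oxidative phosphorylation genes 1 was called, of 22 regulators of lysine 9 methylation on histone H3 1 (Ehmt2, a methyltransferase of this mark, -0.36, not called with quantile normalization), of 18 NRF2 targets 1, and of 9 basal-type genes 1. The cell cycle list held 2 positive and 2 negative calls of 32, the unfolded protein response 2 and 1 of 20, the p53 list 2 and 1 of 19, collagens 2 and 1 of 19, ERK targets 2 and 0 of 20, epithelial-mesenchymal transition 1 and 3 of 23, Notch 0 and 2 of 13, NF-kB 2 and 0 of 19, and complement 2 and 2 of 13. Some of these counts turned with the scaling. With median-of-ratios scaling ERK targets held 0 positive and 3 negative calls, the cell cycle list 1 and 5, and both the unfolded protein response and collagens 0 and 1, and with quantile normalization ERK targets held 0 and 2. Among markers of other cells, endothelial (12 tested) and muscle genes (6) held 0 calls, ductal genes 3 positive and 1 negative of 14, and dendritic cell genes 2 positive of 7. The lists of B cells, erythroid cells, acinar cells and adipocytes had fewer than 5 tested members each and held 1 call in all, in the B cell list.

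**Figure D5:**
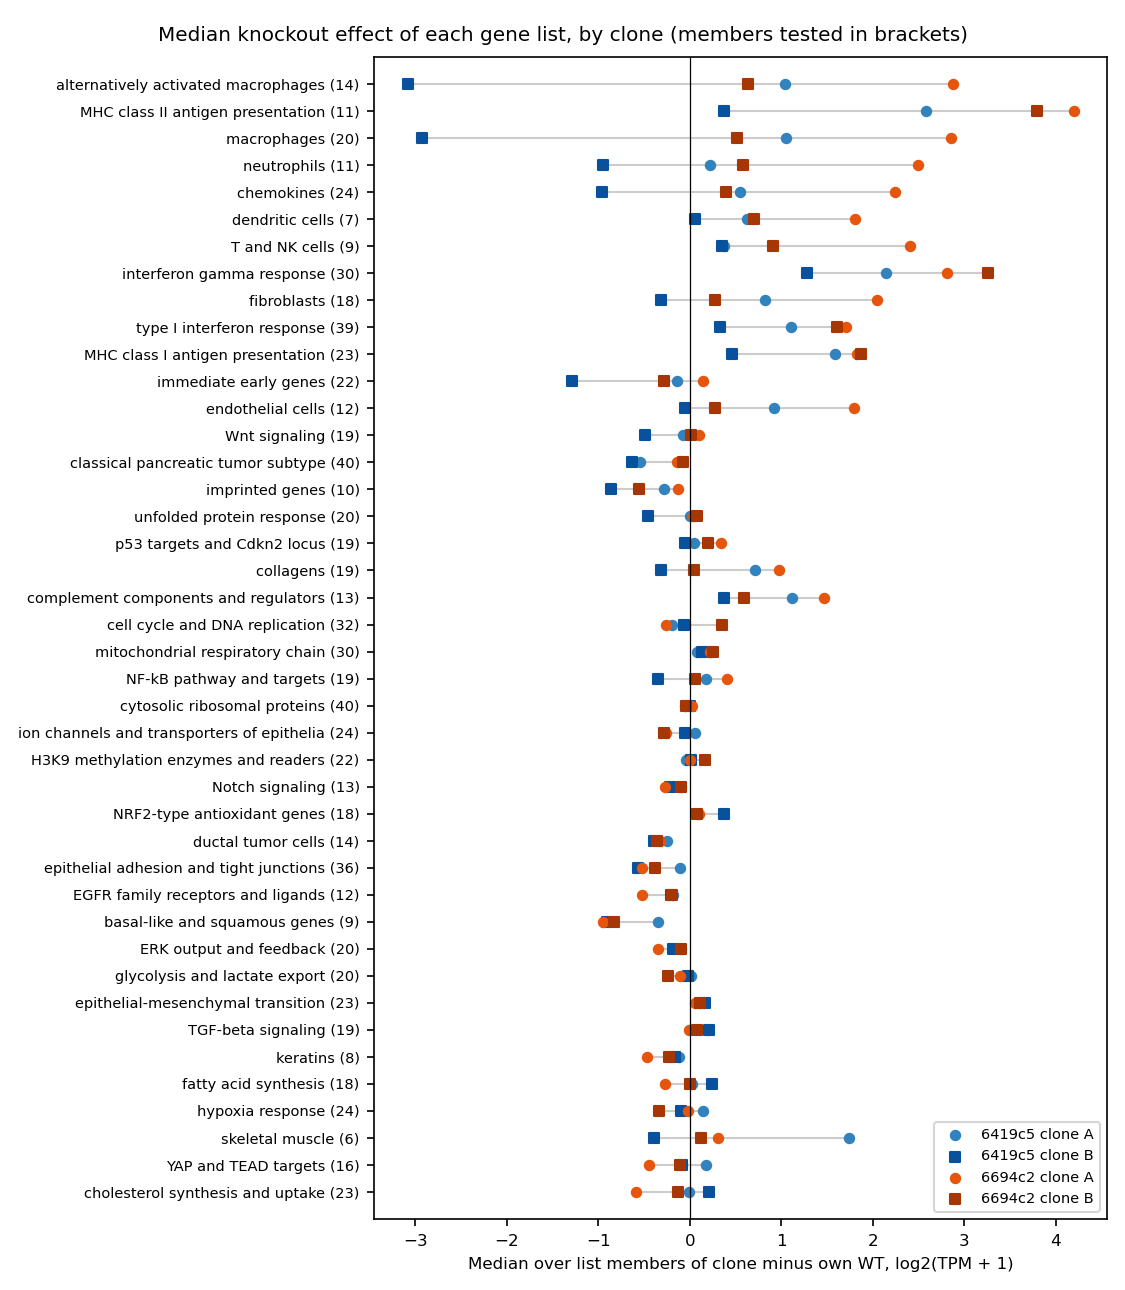
Median knockout effect of each gene list with at least 5 tested members (x axis, log2(TPM + 1) difference from WT) for clones A and B of each line, with the members tested in brackets. In the macrophage list the clones of 6419c5 lie at 1.06 and -2.93 and those of 6694c2 at 2.85 and 0.51.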

How the data were processed

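The authors' deposited table gives TPM for 24493 gene symbols in 18 libraries. Salmon and the build mm10 are named in the submitters' processing notes. The version, the annotation and how gene values were formed from transcripts are not given in the sources used here. The table's name mentions a batch that no label describes, so an adjustment between batches is possible. TPM hold no read numbers, so depth, counting intervals and detection floors are unknown. Columns of the deposited table call the clones A and B, which were read as the clones numbered 1 and 2 in the sample titles; this affects only their names.

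Values were log2(TPM + 1), for the 13422 genes averaging 1 TPM or more, which understates changes of low genes. Limma 3.58.1 in R 4.3.3 was fitted to 6 group means with 12 residual degrees of freedom, empirical Bayes moderation with a mean-variance trend, and Benjamini-Hochberg adjustment over all genes at 0.05. The contrast was the interaction, with the effect of each line beside it. A gene was assigned to 1 line alone where the interaction and that line's effect were called and the other line's was not. The fit was tested on simulated data. Positions are those of GENCODE M21 (build GRCm38, the same as mm10).

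The members and gene lists (46 lists, 935 of 940 genes in the table) were chosen with earlier results of these data known. Lists were described by counts and medians and not tested as sets. Named genes were the 15 largest interactions of each sign with at least 5 TPM in the highest group and 1 sign in all 4 pairings of clones, the 10 opposite-direction genes of each sign with the largest smaller effect, the 8 largest of each sign with an effect under 0.5 in the other line, up to 5 members per list with the lowest adjusted p, and Kdm3a, Klf5 and Egfr. MicroRNAs, pseudogenes and predicted genes were left out, and only some of these genes are printed; a few list members that count in the totals are not reported here by name. Oas1a, Igtp, Bst2, Ciita, the Hist family and the remaining list members with calls were named after their values had been seen. Alternatives were median-of-ratios and quantile scaling, removal of the 20 most abundant genes, pseudocounts of 0.1 and 5, other filters, a replicate block, the clone as a random block, clone means, macrophage and fibroblast indices as covariates, and leaving out each clone, each library and the 3 libraries that stood apart.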

Additional observations from a re-analysis of the deposited data

Results flagged for a closer look

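The knockout effect differed between the lines, by the test of the difference itself, for 776 genes higher and 393 genes lower in 6694c2. The named genes below changed in opposite directions in the lines, with both line effects and the interaction called by limma. Among those that fell in 6419c5 and rose in 6694c2, the interactions were 4.63 for Olfm4, 4.29 for Wfdc18, a secreted protease inhibitor, 3.34 for Ildr2, 3.21 for Il1b, 2.19 for Wnt4, 1.98 for Vtcn1, 1.89 for Tmc5, a transmembrane channel-like protein, 1.73 for Speg, a muscle kinase, 1.58 for Pcyt1b, an enzyme of phosphatidylcholine synthesis, and 1.51 for Stc1, the hormone stanniocalcin. Among those that rose in 6419c5 and fell in 6694c2, they were -1.96 for Fgf2, -1.88 for Hist1h2ad, -1.45 for Hist1h1c, -1.31 for Hist1h2bc, -1.25 for Aqp8, a water channel, -1.20 for Ndrg1, -1.13 for Cspg4, a membrane proteoglycan, -1.06 for Nudt6, -1.05 for Fkbp10, a collagen chaperone, and -0.90 for Loxl2. Tmc5, Speg, Hist1h2ad, Aqp8 and Cspg4 were not called without clone B of 6419c5.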

How the results depend on the processing

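The counts of called interactions depended most on the scaling and on the clones. Against 776 higher and 393 lower calls in 6694c2, median-of-ratios scaling gave 533 and 768, quantile normalization 416 and 763, and removal of the 20 most abundant genes 622 and 519. The macrophage covariate gave 949 and 372, of which 715 were shared with the 1169, and 111 opposite-direction genes in place of 51. Leaving out 3 libraries that stood apart, namely replicate 3 of 6419c5 WT, replicate 1 of 6694c2 clone A and replicate 3 of its clone B, the counts were 503 and 282, with 671 shared. The clone as a random block gave 2 and 9, with 1 opposite-direction gene, and clone means gave 0, 0 and 0. Without clone A of 6419c5 the counts were 2101 higher, 753 lower and 240 opposite, without its clone B 172, 154 and 14, without clone A of 6694c2 486, 248 and 32, and without clone B of 6694c2 1064, 531 and 51; the cause was not tested. Genes whose clones separated by line numbered 6621, and 10017 without the filter, where more genes were tested, and 10954 without clone A of 6419c5, where 1 clone fewer had to separate. Leaving out 1 library gave 524 to 829 higher, 228 to 470 lower, 32 to 55 opposite and 6238 to 7455 separated genes. The lowest count of lower calls was without 6419c5 WT replicate 3, and opposite-direction genes numbered 33 without 6419c5 WT replicate 1, 32 without 6419c5 clone A replicate 3 and 33 without 6694c2 WT replicate 2. Direction reversed in Lcn2 (-0.0535) and Hspa1a (-0.40), both without clone B of 6419c5. The replicate numbers did not pair the libraries (15 of 45 same-numbered pairs correlated over 0.1), and the fit with a replicate block called 1043 genes, 687 higher and 356 lower. The other alternatives kept each count within 1.5 times. The design has 2 clones per line and TPM without depth, and neither the clone spread nor low genes can be measured better from it.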

Other observations

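Library values of 3 genes complete those given above, of which Wfdc18 and Ltf had a called interaction and Epcam did not. Wfdc18 had 8.78, 8.97 and 17.9 TPM in 6419c5 WT, 3.54, 10.2 and 3.61 TPM in clone A, and 0 to 1.46 TPM in clone B, while in 6694c2 it rose from 0.423 to 1.25 TPM in WT to 15.2 to 18.9 TPM in clone A and 2.62 to 4.78 TPM in clone B. Clone A of 6419c5 overlapped WT and the other clones did not. Ltf had 7.64, 9.84 and 8.52 TPM in 6419c5 WT, 1.11 to 2.08 TPM in clone A and 0 to 0.0863 TPM in clone B, and stayed between 0.0637 and 1.57 TPM in all libraries of 6694c2.

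Epcam, the epithelial adhesion molecule that is often used to recognise tumor epithelium, had 236 to 273 TPM in 6419c5 WT, 87.7 to 199 TPM in clone A and 20.2 to 34.1 TPM in clone B. In 6694c2 it had 21.6 to 28.3 TPM in WT, 2.74 to 7.56 TPM in clone A and 0.745 to 1.12 TPM in clone B. It fell in all 4 clones, and its interaction was -1.02 (95% interval -1.80 to -0.23; limma, adjusted p = 0.103), which did not pass. WT of 6694c2 lay at the level of clone B of 6419c5.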
